A study of Mus musculus with 4 samples.

Results

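The Hoxb cluster is a row of 10 homeobox genes, Hoxb1 to Hoxb9 and Hoxb13, on mouse chromosome 11. All 10 were matched by symbol, among 21887 protein-coding genes in the RefSeq gene table of GRCm38.p6 (mm10). The stretch described here runs from Hoxb13 to Hoxb1, chr11:96194316-96368254 (mm10), with 200 kb on either side. It was read in 4 libraries of wild-type mouse lung at stage E15.5, numbered replicates 1 to 4, in which accessible DNA was tagged by the Tn5 transposase in 60000 nuclei of snap-frozen lungs (ATAC-seq). There was 1 group and no contrast between conditions, so stretches of DNA were compared within each library. The genotype was given only as wt, the tissue was whole lung, and whether the replicates were separate embryos, pools or litters was not labelled, so each SD covers these samples only and may be technical. Peaks inside the Hoxb cluster and its flanks numbered 75, 112, 147 and 112 in replicates 1 to 4, of 134503, 186199, 211678 and 192842 peaks kept in all.

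HOX proteins are transcription factors that bind DNA through a homeodomain, often with PBX and MEIS partners, and give cells along the body axis their regional identity. The genes of a cluster lie in the order in which they are used, both in time and from head to tail, so Hoxb1 acts early and towards the head and Hoxb13 late and towards the tail. Retinoic acid opens the Hoxb1 end first, while Polycomb complexes keep unused genes shut. In the developing lung, Hoxb genes of the middle of the cluster, such as Hoxb5, are known from the mesenchyme that surrounds the branching airways.

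Replicate 1 stood apart before any result on Hoxb genes. Its peaks were named with the French for fresh, and the peaks of the other 3 lists with frozen, although the protocol given for all 4 described snap-frozen lungs. Replicate 1 had the fewest peaks and a median fold of 8.99, against 3.73 to 3.90 in replicates 2 to 4. Fold here is the peak caller's enrichment at the summit over background, with 1 added to each, and each peak was placed by the percentile of its fold within its own list. In whole tissue, more cells with open DNA and more open DNA per cell cannot be told apart. The tissue label was checked against marker genes, which counted as open with a peak within 1 kb of either annotated end in all 4 libraries. All 6 markers of lung epithelium, all 6 of lung mesenchyme, all 3 of mesothelium and 3 of 4 of endothelium were open, beside 66.7% of all protein-coding genes, so the counts of such short lists say little. Of markers of other tissues, 1 of 3 for blood, 1 of 3 for heart muscle, 1 of 3 for oesophagus and foregut, 2 of 3 for neural cells and 1 of 3 for liver were open. These were Klf1, at a mean percentile of 96.5, Tnnt2 at 64.4, Sox2 at 82.3, Tubb3 at 78.8, Sox10 at 53.8 and Apob at 73.0. Ptprc, Gata1, Krt5, Trp63 and Alb had no peak at an end in any library, and the part of other cell types in the Hoxb values was not tested.

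Sequence was at hand for the start of 3 of the 10 Hoxb genes, in the RefSeq promoter table of GRCm38.p6, and for both miRNAs encoded in the cluster. Each promoter window runs from 250 bases before to 50 bases after an annotated start, on the plus strand. These are the 3 windows at hand, and they differed in their coverage. The Hoxb4 window lay wholly under a peak in every library. The Hoxb8 window had no base under a peak in any library. The Hoxb1 window was covered in 3 of 4 libraries. Capitals mark every match to the motifs that were searched, on both strands.
Hoxb8, chr11:96281655-96281954: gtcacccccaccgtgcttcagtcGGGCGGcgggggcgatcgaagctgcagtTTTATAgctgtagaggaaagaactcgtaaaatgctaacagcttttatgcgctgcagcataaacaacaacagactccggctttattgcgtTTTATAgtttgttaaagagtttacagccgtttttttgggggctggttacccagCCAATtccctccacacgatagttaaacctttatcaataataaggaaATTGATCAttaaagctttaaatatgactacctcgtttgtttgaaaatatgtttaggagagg
Hoxb4, chr11:96318017-96318316: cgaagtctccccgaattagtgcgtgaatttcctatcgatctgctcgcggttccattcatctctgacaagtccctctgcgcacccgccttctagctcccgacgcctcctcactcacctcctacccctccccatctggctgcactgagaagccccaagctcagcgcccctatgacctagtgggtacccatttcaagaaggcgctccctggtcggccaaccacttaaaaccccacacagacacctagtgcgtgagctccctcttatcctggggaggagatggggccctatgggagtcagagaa
Hoxb1, chr11:96365508-96365807: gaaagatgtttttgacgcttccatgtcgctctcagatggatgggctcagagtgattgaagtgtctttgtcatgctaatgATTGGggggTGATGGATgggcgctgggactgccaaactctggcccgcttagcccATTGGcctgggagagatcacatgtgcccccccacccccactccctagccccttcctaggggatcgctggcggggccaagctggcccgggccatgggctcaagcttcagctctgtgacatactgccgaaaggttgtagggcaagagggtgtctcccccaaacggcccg

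For homeodomain proteins alone, the core TAATTA was searched, and for HOX proteins bound with PBX the letters TGATNNAT. General promoter elements were the TATA box, spelled TATAAA, the box of the factor NFY, spelled CCAAT, and the box of SP and KLF factors, spelled GGGCGG. The other 2 were a direct repeat of GGTCA spaced by 5 bases (retinoic acid receptors) and a CTCF core. No 2 of the matches marked in these windows overlapped. The Hoxb1 window held 1 match to the HOX with PBX motif, from 162 bases before the start. Hoxb1 is known from the mouse hindbrain to regulate its own transcription through such sites. Of 32851 windows in the table, 8.85% held that motif. The Hoxb1 window also held 2 NFY boxes, found in 37.4% of windows. The Hoxb8 window held 1 HOX with PBX match, 2 TATA boxes (13.6% of windows), 1 NFY box and 1 SP and KLF box (35.7% of windows). The Hoxb4 window held none of the motifs. The homeodomain core was in 5.29% of windows, the CTCF core in 8.61% and the retinoic acid receptor repeat in 0.0761%, and none of these was in the 3 Hoxb windows. The windows of Hoxb8, Hoxb4 and Hoxb1 held 13, 14 and 10 CpG dinucleotides, against a median of 7 over the table. Fewer CpG were held by 62.1%, 63.7% and 56.5% of windows, so all 3 lay not far above the middle. Their G+C content was 42.3%, 58% and 59.3%, against a median of 52.7%.

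Mir196a-1 lies in the long spacer between Hoxb13 and Hoxb9, and Mir10a lies just before Hoxb4. Their mature products are shown because their hairpins lay wholly or mostly outside peaks next to open DNA, with capitals on the seed (bases 2 to 8), which pairs with target mRNAs.
mmu-miR-196a-5p: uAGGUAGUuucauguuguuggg
mmu-miR-196a-1-3p: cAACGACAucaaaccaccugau
mmu-miR-10a-5p: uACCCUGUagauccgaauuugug
mmu-miR-10a-3p: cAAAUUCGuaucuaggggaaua
The 4 seeds differ from each other. In mouse, miR-196a is known to direct cleavage of Hoxb8 mRNA, the product of a neighbour in the same cluster.

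Peaks covered 32.1%, 40%, 37.6% and 37.2% of the bases of the Hoxb cluster in replicates 1 to 4, against 7.21%, 11.9%, 12.9% and 10.2% of its flanks. The lowest library in the cluster was thus above the highest in the flanks. The mean was 36.7% ± 3.33 in the cluster and 10.6% ± 2.5 in the flanks (SD, n = 4), a difference of 26.2 ± 1.68 percentage points. A two-sided exact sign-flip permutation test over the 4 libraries gave p = 0.125, the smallest p that 4 libraries allow, so no comparison of this kind can pass 0.05 here. Among 14272 stretches of the genome as long as the cluster, the median coverage was 2.30%, and 1.19% of stretches were covered as much as the Hoxb cluster or more, on the mean of 4 libraries. By single library, 4 stretches were covered as much in replicate 1, 166 in replicate 2, 328 in replicate 3 and 344 in replicate 4.

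**Figure D1:**
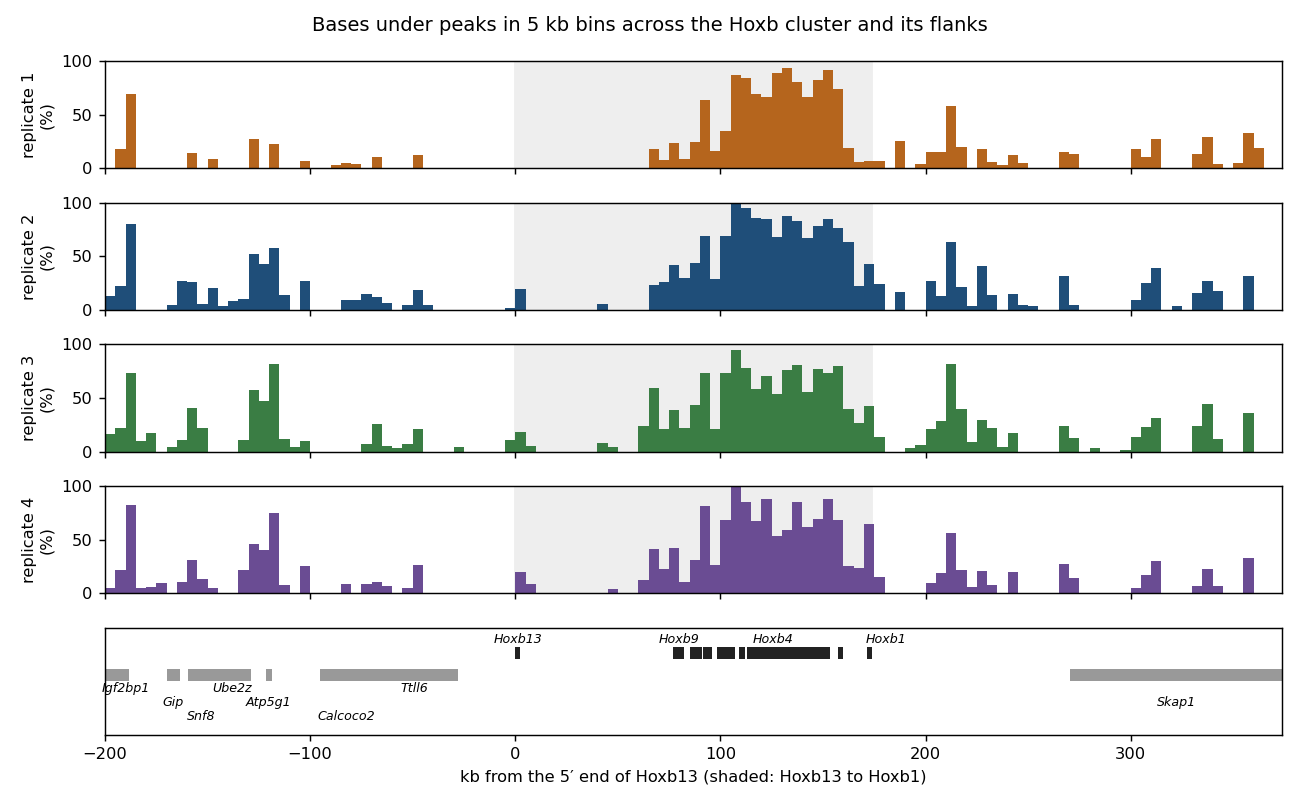
Percent of bases under peaks in bins of 5 kb (vertical axis, 0 to 100) against distance in kb from the 5′ end of Hoxb13 (horizontal axis), with 1 panel per library and protein-coding genes below. A block of high bins fills the shaded cluster from Hoxb9 towards Hoxb1 in all 4 libraries, while the stretch between Hoxb13 and Hoxb9 is nearly empty.

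Coverage was not spread evenly over the Hoxb cluster. The stretch from Hoxb9 to Hoxb1, with both genes, was covered to 55.9%, 66.9%, 59.5% and 60.2% in replicates 1 to 4. The spacer between Hoxb9 and Hoxb13 was covered to 2.17%, 5.63%, 9.27% and 8.23%. The difference of 54.3 ± 4.87 percentage points (SD, n = 4) had the same direction in 4 of 4 libraries (exact sign-flip permutation p = 0.125). In a narrower part, from Hoxb8 to Hoxb2, peaks lay over 68.8%, 74.8%, 67.4% and 69.1% of 74620 bp. Within it, Hoxb8, Hoxb7 and the spacer Hoxb7 to Hoxb6 averaged 44.9%, 54.8% and 28.2%. From the spacer before Hoxb5 to the spacer before Hoxb2, genes and spacers averaged 74.1% to 98.4%. Over Hoxb8 to Hoxb2 as a whole, 50.4% of bases were under a peak in all 4 libraries and 12.3% in none. In the whole cluster these shares were 23.6% and 49.2%, and in the flanks 4.64% and 81.0%. Between Hoxb8 and Hoxb2, the longest stretch without a peak of any library was 1342 bp, inside Hoxb8.

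With bases pooled, Hoxb genes were more covered than the DNA between them, which did not hold for each gene and spacer taken singly. Gene spans were covered to 60.6%, 69.7%, 62.7% and 64.0% in replicates 1 to 4, against 10.4%, 17.5%, 18.5% and 16.8% of the spacers. Leaving out the long spacer before Hoxb9, the remaining spacers averaged 45.2% ± 7.55, against 64.3% ± 3.91 in the genes (SD, n = 4). That difference of 19.0 ± 4.36 percentage points was present in 4 of 4 libraries (exact sign-flip permutation p = 0.125). Hoxb3 outside Hoxb4 gave 37458 of the 75140 gene bases, at 74.1% ± 6.61. The longest remaining spacer, Hoxb2 to Hoxb1, had 11725 bp at 26.6% ± 12.3. The spacers Hoxb8 to Hoxb7, Hoxb6 to Hoxb5 and Hoxb5 to Hoxb3 averaged 100%, 98.4% and 96.6%, above every gene. Hoxb9 to Hoxb8 and Hoxb7 to Hoxb6 averaged only 25.8% and 28.2%. The difference without Hoxb3 was not tested.

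**Figure D2:**
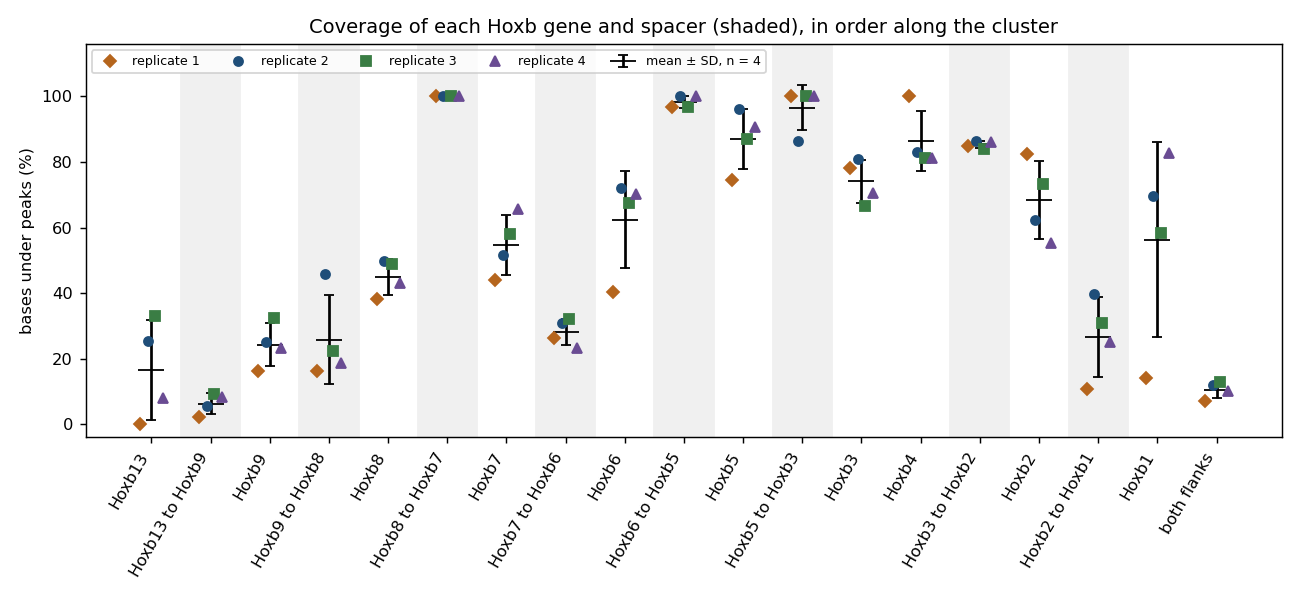
Percent of bases under peaks (vertical axis) for each Hoxb gene, each spacer (shaded) and the flanks, in order along the cluster, with 1 symbol per library and the mean ± SD (n = 4). From Hoxb6 to Hoxb2 every gene and spacer averaged above 60%, with the spacer Hoxb6 to Hoxb5 at 98.4%, while the spacers Hoxb7 to Hoxb6 and Hoxb2 to Hoxb1 averaged 28.2% and 26.6%.

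Peaks in the Hoxb cluster were wider than in its flanks. Peaks touching the cluster had median widths of 1301, 802, 510 and 673 bp in replicates 1 to 4, against 425, 459, 388 and 418 bp in the flanks. Their median percentile of fold was 74.6, 76.7, 64.6 and 72.3, against 69.1, 49.3, 51.6 and 45.7. Both measures were higher in the cluster in every library, and neither was tested. Overlapping peaks of the 4 lists merged into 49 regions in the cluster, and 23 of them (46.9%) had peaks of all 4 libraries. In the flanks 27 of 108 (25.0%) did, and in the whole series 21.5%. An overlap of 1 bp was enough to merge peaks. Shared regions had a median width of 2571 bp in the cluster, 1326 bp in the flanks and 1454 bp in the series. The part of peak width and density in these shares was not tested. None of the 49 cluster regions came from replicate 1 alone, against 10 of 108 in the flanks and 27206 of 307572 in the series. In replicates 2, 3 and 4 only were 3 cluster regions, against 8 in the flanks and 25355 in the series. The summits of the strongest peaks in the 23 shared regions lay within a median of 106 bp of each other, against 101 bp in the flanks and 143 bp over all shared regions of the series.

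**Figure D3:**
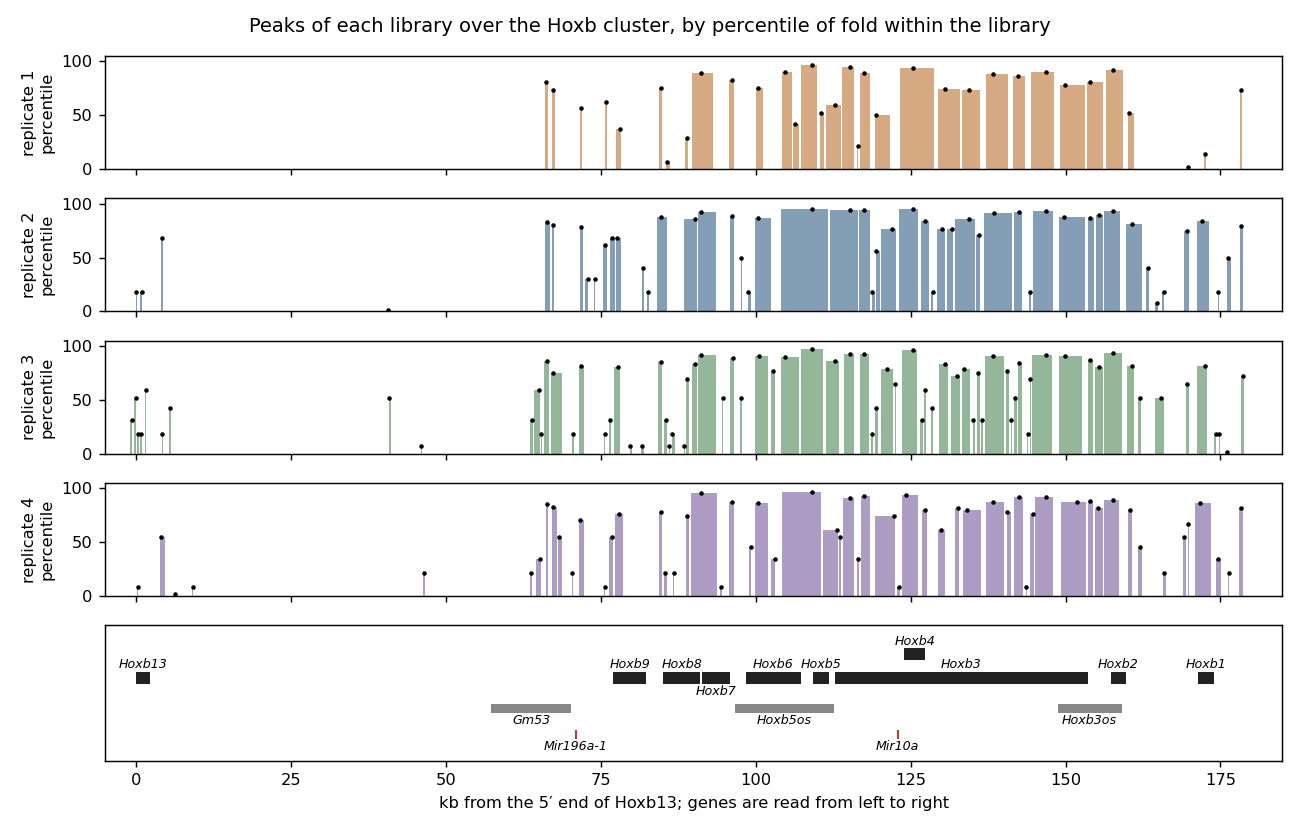
Each bar is a peak of 1 library, drawn at its position in kb from the 5′ end of Hoxb13 and as high as the percentile of its fold within that library, with a dot at the summit. Genes, long non-coding RNAs (grey) and miRNAs (red) are drawn below. Peaks crowd the stretch from Hoxb8 to Hoxb2 in all 4 libraries, and the highest is the one at the 5′ end of Hoxb5 in each.

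At the 10 Hoxb genes, 9 had a peak of every library within 1 kb of either annotated end, where 66.7% of all protein-coding genes did. Without replicate 1 all 10 did, where 70.4% of all genes did. Counting only the 5′ end, which is the low-coordinate end because Hoxb genes are read in 1 direction, 8 of 10 had a peak of every library, and the other 2, Hoxb6 and Hoxb13, lacked one in replicate 1 only. Among 32851 starts in the promoter table, 55.0% had a peak of every library within 1 kb, or 59.2% without replicate 1. The percentile of fold over open gene ends had a median of 92.4 over the 9 Hoxb genes and 94.5 over all 14602 open genes. Over 5′ ends the median was 86.8 for the 8 Hoxb genes, against 93.6 for the 18074 open starts of the promoter table. Each Hoxb median was thus the lower one. By either end, Hoxb5 and Hoxb6, which share a peak, stood at 96.6, above the median of all open genes. Hoxb7 and Hoxb8 share another peak, at 92.4.

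Hoxb1, the gene of hindbrain identity at the 3′ edge of the cluster, varied most between libraries. Its strongest peak within 1 kb of the 5′ end, at 96365746, stood at percentile 14.3 in replicate 1 and at 84.4, 81.8 and 86.7 in replicates 2 to 4. Its span was covered to 14.2% in replicate 1 and to 69.7%, 58.5% and 82.9% in the others. Summit pileups, the number of reads or fragments stacked at the summit as recovered from fold, were 13, 29, 22 and 26. Replicate 1 was thus low at Hoxb1 by each of these measures. The promoter window printed above had 0, 258, 221 and 300 of its 300 bases under a peak. Hoxb1 averaged percentile 66.8 with all 4 libraries and 84.3 without replicate 1.

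Hoxb2, a regulator of hindbrain and facial nerve patterning, had a strong peak in all 4 libraries. The percentiles at its 5′ end were 91.9, 93.5, 93.5 and 89.5 in replicates 1 to 4, with pileups of 187, 64, 51 and 32. All 4 summits lay inside the gene, 298 to 404 bp past the 5′ end at 96351632. Between Hoxb2 and Hoxb1 lies a spacer of 11725 bp, covered to 10.7%, 39.9%, 30.8% and 25.1%, again lowest in replicate 1. Its shared region next to Hoxb2 ranked at 73.8 ± 14.6 and the one before Hoxb1 at 52.0 ± 34.0. The region before Hoxb1 stood at 1.39 in replicate 1 and at 64.6 to 75.1 in the others.

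Hoxb3, a regulator of hindbrain and pharyngeal organs, has an annotated span of 40830 bp that contains Hoxb4, because its transcripts can start far upstream. Outside Hoxb4, peaks covered 78.1%, 81.0%, 66.7% and 70.7% of the Hoxb3 span in replicates 1 to 4, with 13, 18, 25 and 20 peaks. Coverage was alike before and after Hoxb4, at 73.2% ± 10.9 and 74.5% ± 6.78 (SD, n = 4). At its outermost 5′ end, 96307101, the percentiles were 59.2, 94.0, 86.2 and 61.5. The high value of replicate 2 belonged to a peak whose summit lay 2391 bp past the 5′ end, while the summits of the other libraries lay within 292 bp of it.

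Inside Hoxb3 and outside Hoxb4, 7 regions had peaks of all 4 libraries, and 4 of them kept their summits within 100 bp. Over the cluster 43.5% of shared regions did, and over the series 38.5%. In the other 3 the strongest summits were spread over 2815, 4008 and 2063 bp. The region at 96311020 to 96312827 ranked at 92.2 ± 2.26 with summits within 68 bp of each other over the 4 libraries. The one at 96338471 to 96342489 ranked at 91.5 ± 1.39 with summits within 56 bp. The one at 96331179 to 96335728 ranked at 89.2 ± 1.98 with summits within 64 bp. Their median summits lay 4704 bp past the 5′ end of Hoxb3, at -10428 bp from that of Hoxb2 and 14413 bp past that of Hoxb4, the nearest in each case. The fourth, at 96335759 to 96337755, ranked at 88.6 ± 4.21 with summits within 92 bp.

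Hoxb4, known for axial patterning and for expanding blood stem cells, ranked second at its 5′ end. The percentiles were 93.5, 95.2, 95.9 and 93.5 in replicates 1 to 4, with pileups of 222, 83, 75 and 49. The Hoxb4 span was covered to 100% in replicate 1 and to 81.1% to 83.2% in the others. The strongest summit lay inside the gene, 1442 to 1458 bp past the 5′ end at 96318267, in replicates 1, 2 and 3, and 368 bp past it in replicate 4. In replicates 1, 2 and 3 the rank of Hoxb4 thus rests on a peak that reaches within 1 kb while its summit does not. Mir10a, 110 bp long at 96317165 to 96317274, lies between the Hoxb3 and Hoxb4 5′ ends. Its hairpin had no base under a peak in replicates 1, 2 and 3, and 90 bases in replicate 4. A peak lay within 1 kb of it in every library, as for 29.6% of 1005 miRNA hairpins, and the strongest such peak was the Hoxb4 peak, with the same percentiles. The 90 bases in replicate 4 lay under a separate, weaker peak at percentile 8.73.

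Hoxb5, known from airway branching and from nerves of the gut, had the strongest peak of the cluster in every library. The percentiles at its 5′ end were 96.9, 95.4, 97.1 and 96.8 in replicates 1 to 4, with pileups of 367, 86, 95 and 86. The summits were at -89, -86, -109 and -78 bp from the 5′ end at 96303512, where negative means upstream, so they fell within 31 bp of each other. This summit lies in the spacer between Hoxb6 and Hoxb5, which was covered to 96.8%, 100%, 96.7% and 100%. The merged region around it, 96298338 to 96311010, was the widest of the cluster at 12673 bp and reached from Hoxb6 into Hoxb3. Hoxb5os, a long non-coding RNA gene that overlaps Hoxb5 and Hoxb6, was covered to 51.2%, 73.2%, 69.7% and 70.9%.

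Hoxb6, known from the lateral mesoderm, differed from Hoxb5 at its annotated 5′ end, the outermost of a span of 8756 bp. Within 1 kb of 96292814, replicate 1 had no peak, and replicates 2 to 4 had peaks at percentiles 49.3, 51.6 and 45.7 with pileups of 13, 13 and 11. At either end Hoxb6 ranked at 96.9, 95.4, 97.1 and 96.8, the same values as Hoxb5, because its 3′ window reaches the Hoxb5 peak. Inside the gene, the shared region at 96294139 to 96297500 ranked at 84.9 ± 6.87 (SD, n = 4), with its median summit 1871 bp past the 5′ end. The strongest peak touching the Hoxb6 span stood at 89.9, 95.4, 90.9 and 96.8 in replicates 1 to 4. In replicates 2 and 4 it was the Hoxb5 peak, and in replicates 1 and 3 a separate peak inside Hoxb6. Peaks covered 40.3% of the Hoxb6 span in replicate 1 and 67.4% to 72.0% in the others.

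Hoxb7 and Hoxb8 share the next strong region. Hoxb7, a regulator of axial patterning, ranked at 89.5, 92.7, 92.1 and 95.5 in replicates 1 to 4 at its 5′ end, with pileups of 148, 58, 43 and 67. The summits lay in the spacer of 278 bp between Hoxb8 and Hoxb7, at -181, -124, -125 and -114 bp from the 5′ end of Hoxb7 at 96285604. That spacer was wholly covered in every library. Hoxb8, known from spinal sensory neurons and myeloid progenitors, had lower percentiles at its 5′ end at 96279401, of 75.0, 87.4, 85.5 and 78.4. Its summits there lay at -418, -391, -417 and -446 bp. The Hoxb8 start in the promoter table lies further inside the gene, at 96281905. Its window of 300 bases had no base under a peak in any library, where 48.6% of such windows had a peak of every library. Within 1 kb of that start, the strongest peaks stood at percentiles 28.5, 85.5, 18.4 and 21.1 in replicates 1 to 4.

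Hoxb9, known from patterning of the ribs, lies at the edge of the open block. The percentiles at its 5′ end at 96271330 were 36.8, 68.5, 80.5 and 76.4 in replicates 1 to 4, with pileups of 20, 17, 21 and 17. Replicate 1 was the lowest by percentile. The summits lay at 1047, -232, 774 and 941 bp from the 5′ end, and in replicate 2 a second peak inside the gene had the same percentile as the one upstream. Its span was covered to 16.3%, 25.2%, 32.3% and 23.4%, against 38.1%, 49.7%, 48.8% and 43.0% at Hoxb8.

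**Figure D4:**
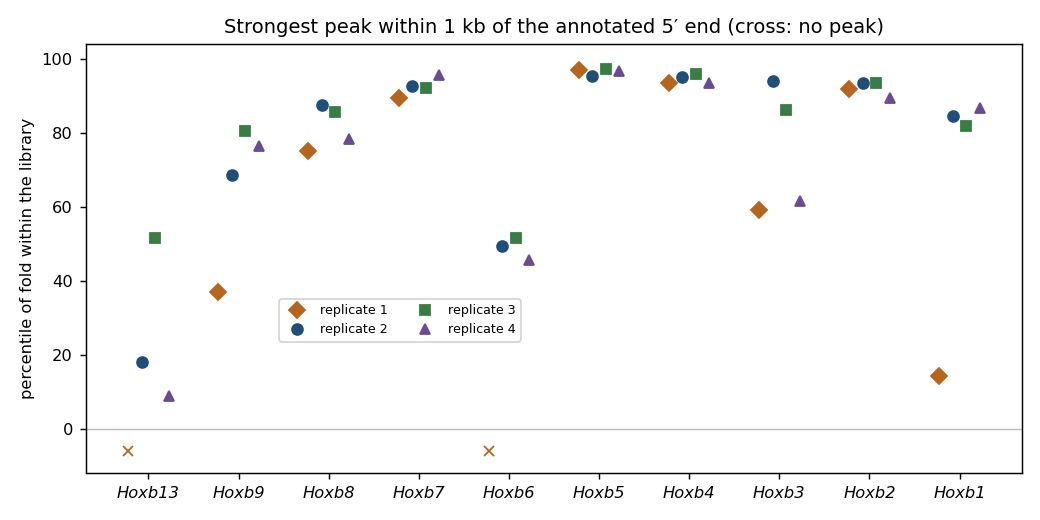
Percentile of fold within the library (vertical axis) of the strongest peak within 1 kb of the annotated 5′ end of each Hoxb gene, with 1 symbol per library and a cross where a library had no peak. Hoxb5 lies between 95.4 and 97.1, Hoxb13 does not pass 51.6, and replicate 1 is far below the other libraries at Hoxb1 and Hoxb9.

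The spacer between Hoxb13 and Hoxb9 spans 74719 bp, and its open DNA lay next to Hoxb9. In the last 15 kb before Hoxb9, a length chosen after the values were seen, coverage was 10.8%, 23.5%, 39.3% and 31.3% in replicates 1 to 4. In the remaining 59719 bp it was 0%, 1.14%, 1.72% and 2.44%. All 4 shared regions of the spacer lay in the last 15 kb. The strongest, at 96260107 to 96261060, ranked at 80.5, 83.0, 86.2 and 85.3, with summits within 101 bp. It lies in Gm53, a long non-coding RNA gene, as does the next, at 96261357 to 96263038, which ranked at 78.0 ± 4.21 with summits within 58 bp. The longest stretch of the cluster without a peak of any library was 31429 bp, from 96203576 to 96235004. The Mir196a-1 hairpin, 96265164 to 96265265, had no base under a peak in any library. The strongest peak within 1 kb of it lay past the hairpin, in the shared region at 96265740 to 96266582, at percentiles 57.0, 78.1, 81.8 and 70.8. In replicates 3 and 4 weaker peaks, at percentiles 18.4 and 21.1, lay nearer, before the hairpin.

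Hoxb13, known from the tail and the prostate, had the lowest mean coverage and the lowest mean 5′ percentile of the 10 genes. By coverage it was not below Hoxb9 in replicates 2 and 3. Replicate 1 had no peak within 1 kb of its 5′ end at 96194316, and its nearest summit lay at -48494 bp. Replicates 2, 3 and 4 had peaks there at percentiles 18.1, 51.6 and 8.73, with pileups of 10, 13 and 8. The first and last of these percentiles are low, and that of replicate 3 is near the middle of its list. A signal below the peak caller's limit is not listed, so the absence of a peak in replicate 1 does not show closed DNA. Its span was covered to 0%, 25.3%, 33.1% and 7.93%. On the other side of Hoxb13, the 28133 bp up to Ttll6 were covered to 0%, 0.256%, 2.67% and 0%.

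Among the 8 Hoxb genes with a 5′ peak in every library, the order by mean percentile was Hoxb5, Hoxb4, Hoxb7, Hoxb2, Hoxb8, Hoxb3, Hoxb1 and Hoxb9. Hoxb8 was placed by its outermost 5′ end, and at its start further inside the gene its percentile was lower in every library. Neighbours in this order mostly did not differ beyond their spread. Hoxb5 stood above Hoxb4 in 4 of 4 libraries, by 2.02 ± 1.59 percentile points (SD, n = 4). Hoxb2 stood above Hoxb8 in 4 of 4, by 10.5 ± 4.74. The other 5 steps kept their direction in at most 3 libraries, and Hoxb2 stood above Hoxb7 in 3 of 4 although its mean was lower. This order was read from the values and was not tested.

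Beyond Hoxb1, open DNA went on towards Skap1, which encodes an adaptor of T cell receptor signalling and is the next protein-coding gene. The 96315 bp between them were covered to 10.6%, 14.7%, 16% and 11.1% in replicates 1 to 4, and held 10 shared regions. The stretch between Ttll6 and Hoxb13 held none. The strongest of the 10, at 96405549 to 96409990, ranked at 92.4 ± 0.87 with pileups of 195, 49, 46 and 48, and its median summit lay 39.4 kb past the end of Hoxb1. Another, at 96412997 to 96414512, ranked at 91.0 ± 0.922 with summits within 28 bp, at 45.6 kb. Of 8 protein-coding genes in the flanks, 7 were open at either end in every library, beside 66.7% of all protein-coding genes. Atp5g1, which encodes a subunit of the mitochondrial ATP synthase, was highest at 99.8 ± 0.0346. Gip, which encodes a gut hormone, was open in none. Atp5g1 thus ranked above every peak of the Hoxb cluster.

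The Hoxb cluster was set beside the other Hox clusters to place its coverage. Hoxa was covered to 36.0%, 48.1%, 46.0% and 44.5% in replicates 1 to 4, so Hoxb was lower in 4 of 4 libraries, with a difference of -6.93 ± 2.07 percentage points (SD, n = 4). This direction depended on the long spacer before Hoxb9. Without that spacer, a choice made after seeing the data, Hoxb was covered to 59.6% ± 4.68 and stood 16 percentage points above Hoxa. Hoxa was left whole there, so a trimmed cluster was set against an untrimmed one. Hoxb was higher than Hoxc in 4 of 4 libraries, at 36.7% ± 3.33 against 9.31% ± 4.13, and higher than Hoxd in 4 of 4, which had 11.5% ± 6.65. Each of these 3 comparisons gave an exact sign-flip permutation p of 0.125, and 0.125 after Benjamini-Hochberg adjustment over the 3.

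**Figure D5:**
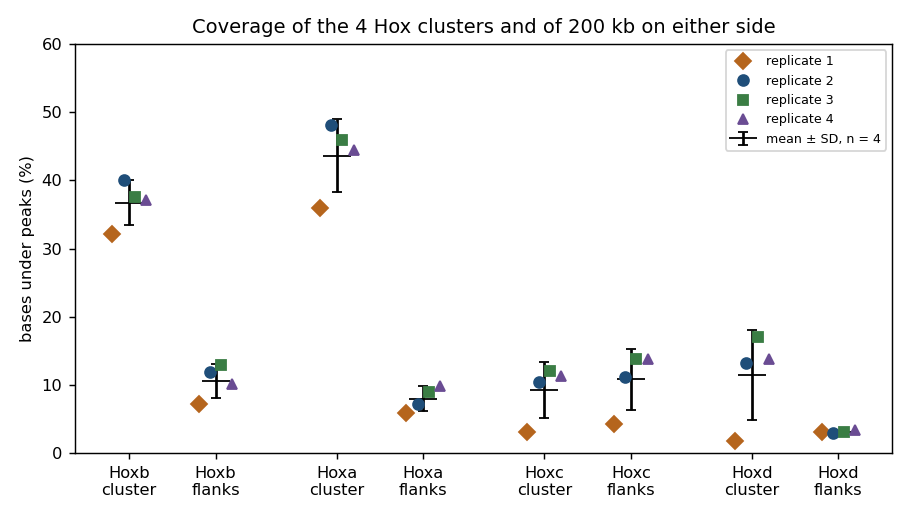
Percent of bases under peaks (vertical axis) in each Hox cluster, from its first to its last gene, and in 200 kb on either side, with 1 symbol per library and the mean ± SD (n = 4). Hoxb, at 36.7%, and Hoxa, at 43.7%, lie far above their flanks in every library, which Hoxc, at 9.31%, does not. Hoxd lies above its flanks in replicates 2 to 4, at 13.3%, 17% and 13.9% against 3%, 3.13% and 3.41%. In replicate 1 it lies below them, at 1.86% against 3.17%.

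Paralogs, the genes that hold the same place in different clusters, were set side by side by the percentile at either end, for some of the pairs. Hoxb5 ranked at 96.6 ± 0.774 and Hoxa5 at 96.9 ± 0.271 (SD, n = 4). Hoxb4 ranked at 94.5 ± 1.24 and Hoxa4 at 98.5 ± 0.408. Hoxb7 ranked at 92.4 ± 2.47 and Hoxa7 at 68.4 ± 15.1. Hoxb9 ranked at 65.5 ± 19.8 and Hoxa9 at 88.6 ± 5.44. Among these 4 pairs, the Hoxb mean was the higher one at Hoxb7 only, and no pair was tested.

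Genes whose products act on Hox clusters or with HOX proteins were open at either end in 22 of 28 cases, beside 66.7% of all protein-coding genes. All 9 genes of the cofactor families Meis, Pbx and Pknox were open, as were Ezh2, Eed and Suz12, which encode the core of a Polycomb complex. Of 6 retinoic acid receptor genes 5 were open, and Rarb had no peak at an end in any library. Cyp26a1, Cyp26b1 and Cyp26c1, which break retinoic acid down, and Cdx2 had a peak in 3 libraries each, and Cdx4 in 1.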

How the data were processed

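ATAC-seq peaks were available for 4 libraries of 1 group, and the authors deposited 1 peak list per library, without pooling. The submitters' processing notes name MACS3 3.0.1 and deepTools, the aligner Bowtie2 2.5.2, and, among utilities, bedtools 2.31.0, SAMtools 1.18, Trim Galore and FastQC 0.12.1, with build mm10. Their roles and parameters, the handling of duplicates and any Tn5 offset of the reads are not given in the sources used here. Each could move peak edges and summits. The deposited fold is the authors' ratio of summit signal to background, the deposited −log10 p and −log10 q describe the same summit, and the deposited score is 10 times −log10 q and was not used. Fold ranks peaks within a list only.

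Peaks on chromosomes 1 to 19, X and Y were kept; 1245 to 1814 per library lay on other contigs. Coverage is the percent of bases under peaks, and overlapping or adjoining peaks of different lists were merged. Below a fold of 15, 100% of values were multiples of a library's step (tolerance 0.02 steps), which gave the pileups and a background of 2.11 to 2.62. Depth is unknown, since read totals were not analysed here. Gene positions and sequences came from RefSeq tables of GRCm38.p6. The gene table has no strand, so calls over all genes used both annotated ends, within 1 kb, and percentiles of Hoxb genes used the low-coordinate end; the 3 Hoxb genes with a strand in the promoter table are on the plus strand. Differences between stretches were tested by two-sided exact sign-flip permutation over libraries. Functions were tested on simulated data. Python 3.11.15, NumPy 2.4.6, pandas 2.3.3 and matplotlib 3.10.9 were used. Named genes were the 10 Hoxb genes, miRNAs and long non-coding genes of the cluster, the protein-coding neighbours on each side, the highest and lowest gene of the flanks and members of the lists. Members, lists and alternatives were chosen with earlier results of these data known.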

Additional observations from a re-analysis of the deposited data

Results flagged for a closer look

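Of 61 sets of 4 libraries checked, 9 had 1 library far from the other 3. For independent, normally spread values chance alone gives about 1 in 20. These sets overlap, and some values sit at 0% or 100%, so the count cannot be read as an excess. Replicate 1 was the one apart in 5 of them. Hoxb1 had its 5′ peak at percentile 14.3 in replicate 1 and between 81.8 and 86.7 in the others, and the percentile at either end was the same 14.3. Coverage of Hoxb6 was 40.3% in replicate 1 and 67.4% to 72.0% in the others, and coverage of Hoxb5os, which overlaps it, was 51.2% against 69.7% to 73.2%. Coverage of Hoxb4 was instead highest there, with 100% in replicate 1 and 81.1% to 83.2% in the others. Replicate 1 had the shortest list and the highest median fold, and its part in these values was not tested.

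The other 4 were small stretches or near 0. The spacer between Hoxb5 and Hoxb3 was covered to 86.4% in replicate 2 and to 100% in the others. The stretch between Ttll6 and Hoxb13 was covered to 2.67% in replicate 3 and to at most 0.256% in the others. Gm11538, a long non-coding RNA gene in the long spacer, was covered to 6.02% in replicate 4 and to 0% in the others. The Mir10a hairpin was covered to 81.8% in replicate 4 and to 0% in the others.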

How the results depend on the processing

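No paired analysis was possible because there is only 1 group and replicate numbers join no samples across groups. Differences between stretches were taken within each library. The 6 differences in coverage kept their direction with a −log10 q of 5 or more, with lists of equal length, without peaks wider than 10 kb and without any 1 replicate. Leaving out 1 replicate gave 25.5 to 26.7 percentage points for the Hoxb cluster minus its flanks, 52 to 55.7 for Hoxb1 to Hoxb9 minus the long spacer, -7.93 to -6.41 for Hoxb minus Hoxa, 26.7 to 28.1 for Hoxb minus Hoxc, 23.5 to 26.8 for Hoxb minus Hoxd and 17.2 to 20.2 for Hoxb genes minus the spacers from Hoxb9 to Hoxb1, whose alternatives were added after seeing the data. Hoxb minus Hoxa was -4.6 ± 3.34 with a −log10 q of 5 or more. With 3 libraries the smallest exact permutation p is 0.25. Flanks of 100 kb gave 28.5 and flank bases outside protein-coding genes 24.6. Alternatives chosen after seeing the data left out the long spacer or counted only 5′ ends, with 8 open genes. Without the long spacer, Hoxb minus its flanks was 49.1 and Hoxb minus Hoxa turned to 16, with Hoxa left whole. This removed nearly uncovered bases from Hoxb only.

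The count of 9 open Hoxb genes ranged from 9 to 10 without 1 replicate. It was 10 with at least 3 of 4 libraries, 8 with windows of 0.5 kb and 9 with 2.5 kb. It was 6 when the summit had to lie in the window. The share of all protein-coding genes was worked out with every library and without replicate 1 only. The other counts therefore cannot be placed against all genes. The median 5′ percentile over Hoxb genes, taken in each library and then averaged, was 85.2, and 83.5 to 86.1 without 1 replicate. It was 77.9 with a −log10 q of 5 or more, since weak peaks then leave the list, and 90 with windows of 2.5 kb, which reach peaks further away. Among percentiles of single genes, 84 of 98 values moved by no more than 1 SD, which is wide for Hoxb1, at 35.1. That count includes the values without 1 replicate, where dropping 1 of 3 or 4 values cannot move a mean by 1 SD. It therefore says little about stability, and the 14 values that moved further all came from other settings. Hoxb6, at 48.8, was 25.2 with lists of equal length, 31.9 with 0.5 kb and 87.5 with 2.5 kb. With a −log10 q of 5 or more, Hoxb9, at 65.5, was 39.9, Hoxb1 was 48.9, and Hoxb6 and Hoxb13 had no peak. Hoxb13, at 26.1, was 13.4 without replicate 3. Depth is unknown, so an absent peak does not show closed DNA.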
